A study of Mus musculus with 6 samples.

Results

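The C1q/TNF-related proteins are a family of secreted proteins. In mouse islets 8 of their genes were examined, *C1qtnf1*, *C1qtnf2*, *C1qtnf3*, *C1qtnf4*, *C1qtnf5*, *C1qtnf6*, *C1qtnf7* and *C1qtnf12*. Count values, 0 included, were available for 40914 genes, and 26445 of these had at least 1 count in the 6 libraries. They were found by gene symbol, except *C1qtnf12*, which the table lists under its older symbol *Fam132a* and which was matched by its Ensembl identifier. The family was selected on the Akita against wild type (WT) contrast itself, because *C1qtnf1* rose most clearly there. The values of the members in that contrast are therefore a description and carry no test. Of the 8 genes, 7 had counts in at least 1 library and 4 (*C1qtnf1*, *C1qtnf4*, *C1qtnf6* and *C1qtnf12*) passed the filter on low counts, out of 15407 genes that did so.

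RNA was sequenced from whole islets of Akita mice, which carry 1 mutant and 1 WT allele of the insulin gene *Ins2* (Ins2 WT/C96Y), and of age-matched WT mice. There were 3 Akita and 3 WT libraries, and each was a pool of islets from 3 mice aged 19 to 21 postnatal days, before weaning. The study's methods name a C57BL/6J background for the Akita mice and state that Akita males were chosen. In both groups the islets were hand-picked and recovered overnight in medium with 11.1 mmol/l glucose and 10% fetal bovine serum. Because each library is a pool, the spread between libraries is a spread between pools and not between animals. The libraries are called AK4, AK5, AK6, WT1, WT2 and WT3, as in the table.

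C1q/TNF-related proteins are relatives of adiponectin. Most consist of a signal peptide, a collagen-like stretch in which glycine recurs as the first residue of each triplet, and a globular C1q domain at the carboxyl end whose fold resembles that of tumor necrosis factor. They assemble into trimers and larger complexes in the secretory pathway, circulate in blood, and are studied as regulators of glucose and lipid metabolism and of inflammation. The Akita mutation removes a cysteine of proinsulin, so that proinsulin misfolds in the endoplasmic reticulum of β-cells.

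The 4 members that could be measured in islets differ in how much collagen-like sequence they encode, so their runs of glycine codons are shown. The sequences are the longest run of in-frame glycine codons that open each triplet of codons in the GENCODE M21 transcripts of genome build GRCm38, 5′ to 3′, with the glycine codons in capitals.
C1qtnf1: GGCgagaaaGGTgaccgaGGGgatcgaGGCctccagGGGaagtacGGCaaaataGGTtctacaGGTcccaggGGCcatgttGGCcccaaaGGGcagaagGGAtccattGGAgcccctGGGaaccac
C1qtnf6: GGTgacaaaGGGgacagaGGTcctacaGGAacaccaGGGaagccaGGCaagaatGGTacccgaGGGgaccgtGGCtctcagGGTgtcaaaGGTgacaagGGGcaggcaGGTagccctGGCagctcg
C1qtnf12: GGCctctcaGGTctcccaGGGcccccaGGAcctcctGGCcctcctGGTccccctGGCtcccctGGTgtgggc
C1qtnf4: GGCttcctaGGCccggcg
*C1qtnf1* and *C1qtnf6* each hold 14 glycine triplets in a row, *C1qtnf12* holds 8, and *C1qtnf4*, which encodes a protein with a pair of C1q domains and no collagen-like stretch, holds only 2. The members that did not pass the filter on low counts have longer runs, with 23 triplets in *C1qtnf3* and *C1qtnf5* and 34 in *C1qtnf2* and *C1qtnf7*.

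The members do not share reads with each other. The longest coding run common to any pair of the 8 genes was 22 bases long, in *C1qtnf1* and *C1qtnf6*, which is shorter than the reads of 50 bases, and is shown because it is the closest match in the family.
shared by C1qtnf1 and C1qtnf6: tctacttcttcagcctcaacgt
No stretch of 50 bases of a member's transcripts occurred in a transcript of another member. *C1qtnf1* is transcribed from the forward strand of chr11:118428203-118449963, and 642 of its 3131 exonic bases (20.5%) are also exons of *Gm11747*, an antisense transcript on the other strand. The library kit does not mark strand, so reads in that stretch could come from either gene. *Gm11747* itself had 0, 5 and 1 counts in AK4, AK5 and AK6 and 0, 0 and 1 counts in WT1, WT2 and WT3. All exonic bases of *C1qtnf5* (chr9:44107245-44109187, forward strand) are exons of *Mfrp* as well, and the other 6 members overlapped no exon of another gene in the basic annotation. In the full annotation, 72 of 2791 stretches of 50 bases from *C1qtnf6* transcripts also lay in *Gm49490*, a transcript on the other strand.

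*C1qtnf1* encodes CTRP1, a secreted protein described as a hormone of adipose tissue and of the stromal cells around vessels, and as an inhibitor of platelet binding to collagen. It had 1929, 2323 and 2237 counts in AK4, AK5 and AK6, against 195, 90 and 145 counts in WT1, WT2 and WT3. After scaling to library size with TMM factors (a trimmed mean of the log ratios between libraries), these were 69.7, 85.1 and 89.0 counts per 1000000 (CPM) in the Akita libraries, against 7.29, 3.72 and 7.01 CPM in the WT libraries. The groups did not overlap, and the lowest Akita library was 9.56-fold above the highest WT library. The means were 81.3 ± 10.2 CPM in Akita and 6.01 ± 1.99 CPM in WT (SD, n = 3 each). The limma-voom log2 fold change, Akita minus WT, was 3.81 (SE 0.25), a 14.02-fold difference with a 95% confidence interval of 9.23 to 21.3-fold. Of all 15407 genes, only *Tmem72* at 5.94 (SE 1.17) and *Gm8615* at 4.5 (SE 1.15) had a higher log2 fold change, and both had larger errors. Over the whole table, 0.759% of the genes tested were higher in Akita islets and 0.857% lower at an adjusted p under 0.05 (limma-voom, Benjamini-Hochberg), and 13.2% had every Akita library above every WT library while 12.2% had every Akita library below. Of the 4 members that passed the filter, *C1qtnf1* alone had every Akita library above every WT library and none had every Akita library below. Since the family was chosen for *C1qtnf1*, nothing is read from this count.

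In whole islets, fewer cells of a type and less RNA per cell cannot be told apart from these counts, and the same holds for more cells and more RNA. At the same age, the study reported similar counts of β-cells per area of islet in both genotypes. It reported a similar ratio of β- to α-cells as well.

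*C1qtnf6* encodes CTRP6, a collagen-containing member that has been described in synovium and fat and as an inhibitor of the alternative complement pathway. It was the member with the most counts in WT islets and was measured with the smallest error. Its level was 30.02, 35.2 and 34.3 CPM in AK4, AK5 and AK6, against 31.0, 32.1 and 34.1 CPM in WT1, WT2 and WT3. The Akita range contained the whole WT range, and the means were 33.2 ± 2.76 CPM in Akita and 32.4 ± 1.55 CPM in WT (SD, n = 3 each). The log2 fold change was 0.03 (SE 0.09), with a 95% confidence interval of 0.879 to 1.19-fold, so that these libraries leave room for a change of that size in either direction.

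*C1qtnf4* encodes CTRP4, the member with a pair of C1q domains, which is known for its expression in brain and for lowering food intake in mice. It measured 9.54, 14.2 and 14.2 CPM in AK4, AK5 and AK6, against 11.2, 9.70 and 12.8 CPM in WT1, WT2 and WT3. AK5 and AK6 lay above all WT libraries and AK4 below them. The means were 12.6 ± 2.69 CPM in Akita and 11.2 ± 1.56 CPM in WT (SD, n = 3 each), and the log2 fold change was 0.16 (SE 0.20), with an interval of 0.805 to 1.54-fold.

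*C1qtnf12* encodes adipolin, an adipose hormone that raises insulin sensitivity in mice. Its level was 4.08, 2.78 and 5.13 CPM in AK4, AK5 and AK6, against 4.34, 4.38 and 5.08 CPM in WT1, WT2 and WT3. AK4 and AK5 lay below the WT libraries and AK6 above them, so the groups overlapped. The means were 4.0 ± 1.18 CPM in Akita and 4.60 ± 0.417 CPM in WT (SD, n = 3 each), and the log2 fold change was −0.24 (SE 0.25), with an interval of 0.565 to 1.27-fold. Without AK5 the log2 fold change was −0.0012.

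**Figure D1:**
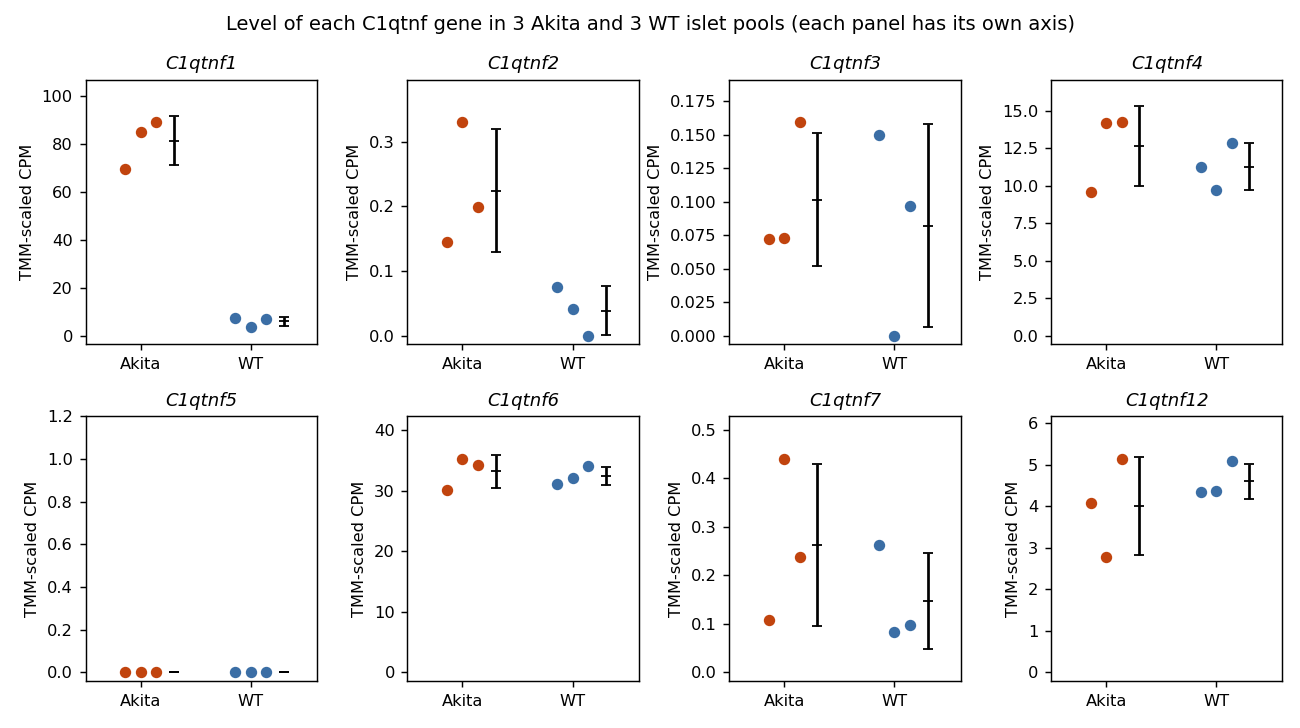
TMM-scaled CPM of the 8 C1qtnf genes, 1 panel a gene with its own axis starting at 0; each point is a library (3 Akita on the left, 3 WT on the right) and the black bar gives the mean and SD. *C1qtnf1* lies between 69.7 and 89.0 CPM in Akita and between 3.72 and 7.29 CPM in WT, the points of *C1qtnf4*, *C1qtnf6* and *C1qtnf12* overlap, and *C1qtnf2*, *C1qtnf3*, *C1qtnf5* and *C1qtnf7* lie below 1 CPM.

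The other 4 members had counts at or near the limit of detection, and 3 counts in a library corresponded to 0.108 to 0.145 CPM. *C1qtnf2*, which encodes a close relative of adiponectin, had 4, 9 and 5 counts in AK4, AK5 and AK6, against 2, 1 and 0 counts in WT1, WT2 and WT3. Every Akita count of *C1qtnf2* was above every WT count, and the ratio of the sums scaled to library size, 18 counts in Akita against 3 in WT, was 5.37 with an exact 95% interval of 1.57 to 28.4 that covers counting error only. *C1qtnf7*, whose product is known from fat and lung, had 3, 12 and 6 counts in the Akita libraries, against 7, 2 and 2 counts in the WT libraries. The groups overlapped, and the ratio of the sums was 1.71, with a counting interval of 0.787 to 3.92. *C1qtnf3*, which encodes a protein of cartilage and fat, had 2, 2 and 4 counts in the Akita libraries, against 4, 0 and 2 counts in the WT libraries. Its groups overlapped as well, with a ratio of 1.19 and a counting interval of 0.363 to 4.17. *C1qtnf5*, which encodes a retinal protein and is transcribed together with *Mfrp*, had 0 counts in all 6 libraries. Since all of its exonic bases are also exons of *Mfrp*, the position of a read does not tell *C1qtnf5* from *Mfrp*. Where reads are counted by exon position, these 0 counts set no limit on its level. By sequence the sharing is not complete, as 1539 of 1822 stretches of 50 bases from *C1qtnf5* transcripts also lay in *Mfrp*. *Mfrp* had 1, 3 and 3 counts in the Akita libraries and 2, 1 and 2 counts in the WT libraries. None of these 4 genes was tested, and for *C1qtnf3* and *C1qtnf7* no difference between genotypes was detectable at this depth. The few *C1qtnf2* counts are a description too, since their interval leaves out the spread between pools and the family was chosen on this contrast.

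The make-up of the family's transcripts differed between genotypes. *C1qtnf1* gave 61.3%, 61.6% and 62.2% of the 8 genes' counts in AK4, AK5 and AK6, against 13.4%, 7.43% and 11.8% in WT1, WT2 and WT3. *C1qtnf6* gave 26.4%, 25.5% and 23.9% in the Akita libraries, against 57.1%, 64.2% and 57.6% in the WT libraries. *C1qtnf4* gave 8.39%, 10.3% and 9.92% in the Akita libraries, against 20.6%, 19.4% and 21.7% in the WT libraries, and *C1qtnf12* gave 2.02% to 3.59% in Akita and 7.98% to 8.75% in WT. The shares of these 4 genes did not overlap between genotypes, and shares within a sum move together. *C1qtnf6* was the largest component in each WT library and *C1qtnf1* in each Akita library, although the CPM of *C1qtnf6*, like those of *C1qtnf4* and *C1qtnf12*, overlapped between the groups. The 8 genes summed to 114, 138 and 143 CPM in AK4, AK5 and AK6, against 54.4, 50.03 and 59.2 CPM in WT1, WT2 and WT3. Without *C1qtnf1* the sums were 44.0, 53.0 and 54.2 CPM in the Akita libraries, against 47.1, 46.3 and 52.2 CPM in the WT libraries. These sums without *C1qtnf1* overlapped, with both the lowest and the highest value in Akita.

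**Figure D2:**
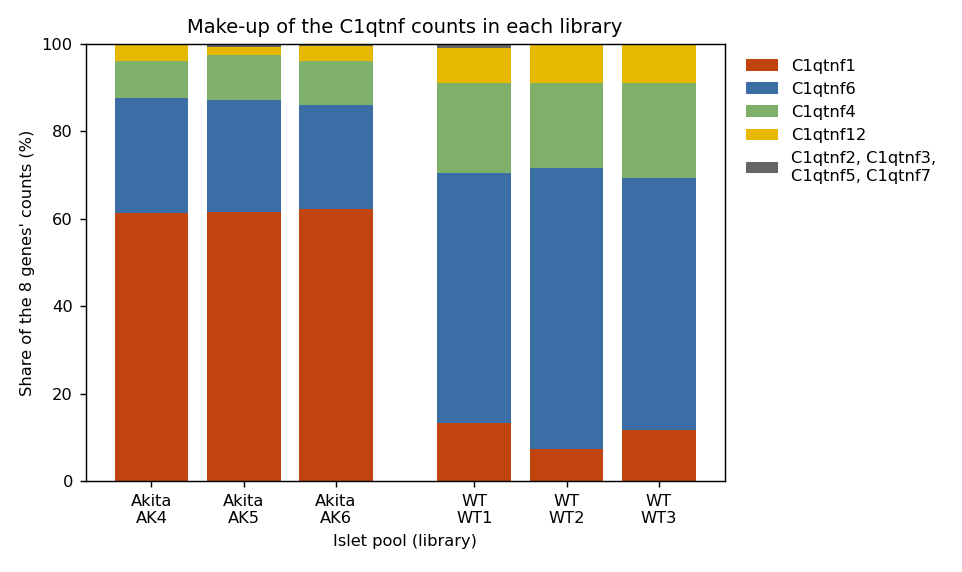
Share of the summed counts of the 8 C1qtnf genes (percent, vertical axis) that each gene gave in each library, with the 3 Akita libraries on the left and the 3 WT libraries on the right. *C1qtnf1* makes up 61.3% to 62.2% in Akita libraries and 7.43% to 13.4% in WT libraries, and *C1qtnf6* makes up 23.9% to 26.4% in Akita and 57.1% to 64.2% in WT.

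Levels were compared between genes per kilobase of exon. In Akita islets *C1qtnf1* stood first with 26.0 ± 3.26 CPM per kb, followed by *C1qtnf6* with 12.3 ± 1.02, *C1qtnf4* with 9.80 ± 2.08 and *C1qtnf12* with 2.93 ± 0.862 CPM per kb (SD, n = 3). In WT islets *C1qtnf6* stood first with 12 ± 0.574 CPM per kb, followed by *C1qtnf4* with 8.72 ± 1.21, *C1qtnf12* with 3.37 ± 0.305 and *C1qtnf1* with 1.92 ± 0.636 CPM per kb (SD, n = 3). *C1qtnf1* thus stood first of the 4 measured members in Akita and last in WT, while the order of the other 3 was the same in both. The ranges of neighbours in these orders did not overlap, but in Akita the lowest *C1qtnf6* library at 11.1 CPM per kb was close to the highest *C1qtnf4* library at 11.01 CPM per kb. *C1qtnf2*, *C1qtnf7* and *C1qtnf3* lay at 0.172, 0.0630 and 0.0397 CPM per kb in Akita and at 0.0296, 0.0353 and 0.0321 CPM per kb in WT, and their order is not resolved by so few counts. Among 15365 tested genes with a length, *C1qtnf1* stood between the percentiles 88.7 and 91.0 of level per kb in the Akita libraries and between 29.1 and 38.6 in the WT libraries. *C1qtnf6* stood between 75.8 and 78.9 in the Akita libraries and between 76.4 and 78.1 in the WT libraries.

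**Figure D3:**
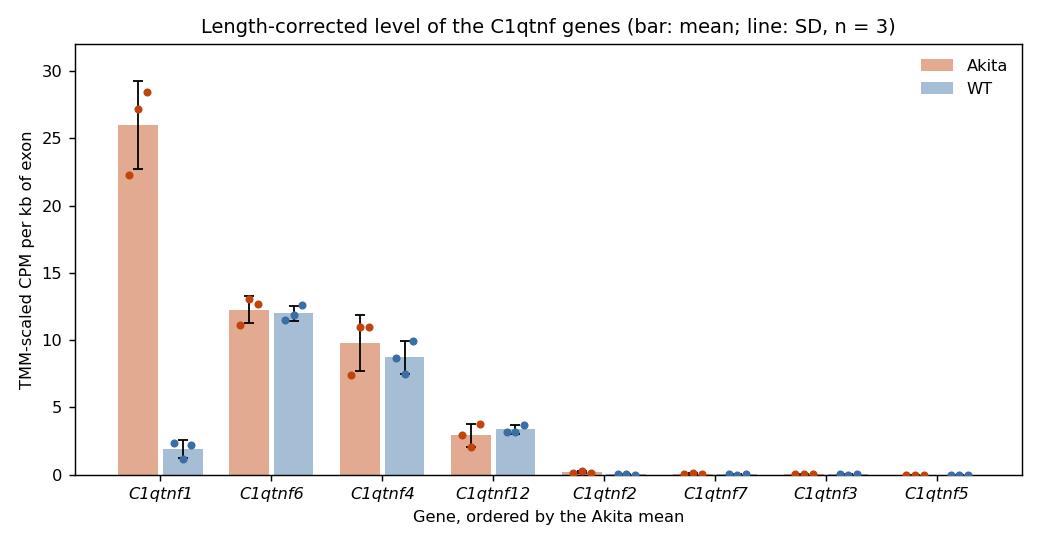
TMM-scaled CPM per kilobase of exon (vertical axis) of the 8 C1qtnf genes, ordered by the Akita mean; bars give the mean and lines the SD of 3 libraries, points the libraries, with Akita left of WT for each gene. *C1qtnf1* has a mean of 26.0 in Akita and 1.92 in WT, whereas the bars of *C1qtnf6* stand at 12.3 in Akita and 12 in WT.

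The difference of *C1qtnf1* was similar whichever library was left out. It ranged from 3.49 without WT2, the WT library with the lowest *C1qtnf1*, to 4.002 without WT1. Over the other ways of scaling, filtering and fitting it ranged from 3.59 to 3.93. When libraries were scaled by their totals alone, the median gene moved up by 0.12 on the log2 scale. Under that scaling *C1qtnf6* had a log2 fold change of 0.15 and *C1qtnf1* one of 3.93, both including this shift.

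**Figure D4:**
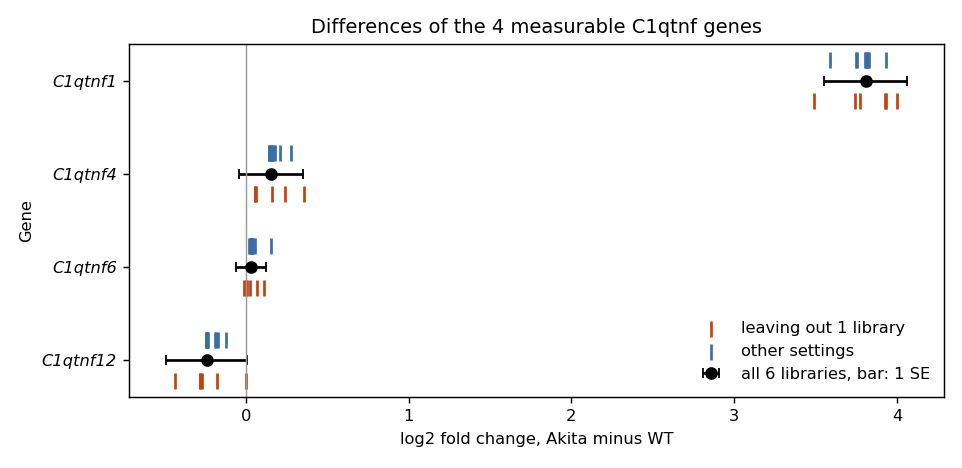
The log2 fold change (Akita minus WT, horizontal axis) of the 4 C1qtnf genes that passed the filter: black points with bars of 1 SE come from all 6 libraries, orange ticks below them from leaving out 1 library, and blue ticks above them from other settings. *C1qtnf1* lies between 3.49 and 4.002 in all of these, and the ticks of *C1qtnf4*, *C1qtnf6* and *C1qtnf12* lie between −0.43 and 0.36.

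Library totals ran from 22069554 to 27043169 counts and TMM factors from 0.937 to 1.09. Insulin transcripts took 11.8% to 12.6% of the counts in Akita libraries and 17.6% to 19.2% in WT libraries. All 10 β-cell markers were present, and 4 of them were lower in Akita at the adjusted threshold (*Mafa*, *Nkx6-1*, *Ins2* and *G6pc2*). At an unadjusted p under 0.05, 8 were lower, against 8.88% of all tested genes. The list summed to 132075 to 156963 CPM in Akita and 222270 to 245961 CPM in WT. Both *Ins2* alleles fall into 1 count, so the genotype could not be checked from these counts.

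Marker lists of other cell types were set beside *C1qtnf1*, because the gene is known from stromal cells and fat. None of 16 mesenchymal and stellate cell markers passed the test. Of these 16, 14 had a log2 fold change above 0, and 2 were higher at an unadjusted p under 0.05, against 9.81% of all tested genes. The median log2 fold change of the list was 0.36 against −0.0011 over all genes. Its summed level was 454 to 668 CPM in Akita and 292 to 963 CPM in WT. The mesenchymal sums were 963, 292 and 325 CPM in WT1, WT2 and WT3, where *C1qtnf1* was 7.29, 3.72 and 7.01 CPM. In AK4, AK5 and AK6 they were 668, 454 and 498 CPM, beside 69.7, 85.1 and 89.0 CPM of *C1qtnf1*. With the mesenchymal score in the model the log2 fold change of *C1qtnf1* was 3.75. This is a description, since 6 libraries are too few to weigh the part of these cells. Adipocyte markers summed to 14.6 to 23.8 CPM in Akita and 15.3 to 18.3 CPM in WT, and the defining hormone *Adipoq*, adiponectin, lay between 0 and 0.145 CPM in Akita libraries and between 0 and 0.0484 CPM in WT libraries. None of 8 macrophage markers passed the test, but all 8 had a log2 fold change below 0, with a median of −0.68 and 2 at an unadjusted p under 0.05, and the list's sum was 32.7 to 96.1 CPM in Akita and 55.4 to 181 CPM in WT. None of 15 acinar markers passed it either, with sums of 320 to 7531 CPM in Akita and 364 to 6991 CPM in WT, and with the acinar score in the model *C1qtnf1* was again at 3.75. None of 10 endothelial markers passed it, with sums of 206 to 314 CPM in Akita and 219 to 328 CPM in WT. For α-cells, all 8 markers lay above 0 on the log2 fold change scale, with a median of 0.48 and 3 at an unadjusted p under 0.05, and summed to 39090 to 61028 CPM in Akita and 27123 to 42200 CPM in WT. All 8 ductal markers lay below 0, with a median of −0.30 and 1 at an unadjusted p under 0.05, and summed to 488 to 603 CPM in Akita and 576 to 1310 CPM in WT. No α-cell or ductal marker passed the adjusted threshold. Besides the β-cell list, the summed levels did not overlap between genotypes for PP and epsilon cell markers, at 5946 to 8749 CPM in Akita and 4465 to 5371 CPM in WT, and for red blood cell markers, at 9.72 to 24.6 CPM in Akita and 5.08 to 8.12 CPM in WT, although no gene of either list passed the test. At an unadjusted p under 0.05, 3 of 4 tested PP and epsilon cell markers and 4 of 4 tested red blood cell markers were higher. For this and the other lists of this paragraph, the shares over all tested genes were 9.81% higher and 8.88% lower. No such share was computed for summed levels. The part of all these marker lists in the *C1qtnf1* difference was not tested.

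The genes around *C1qtnf1* on chromosome 11 had log2 fold changes between −0.22 and 0.58, far smaller than its own. Of the 7 genes within 250 kb that could be tested, 0 passed the adjusted threshold, and 4 had an unadjusted p under 0.05, which 18.7% of all tested genes had. The nearest, *Cant1*, a calcium-activated nucleotidase of the Golgi that lies 9117 bases away, differed by a log2 fold of 0.23 (SE 0.08, adjusted p = 0.191). *Timp2*, an inhibitor of matrix metalloproteinases, had one of 0.47 (SE 0.15, adjusted p = 0.171). *Engase*, a cytosolic enzyme that trims N-glycans, had one of 0.44 (SE 0.14, adjusted p = 0.164), the lowest adjusted p of the 7. *Rbfox3*, a neuronal splicing factor, had the highest log2 fold change of the 7, 0.58 (SE 0.25, adjusted p = 0.279). All p-values are from limma-voom, adjusted over the 15407 genes.

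**Figure D5:**
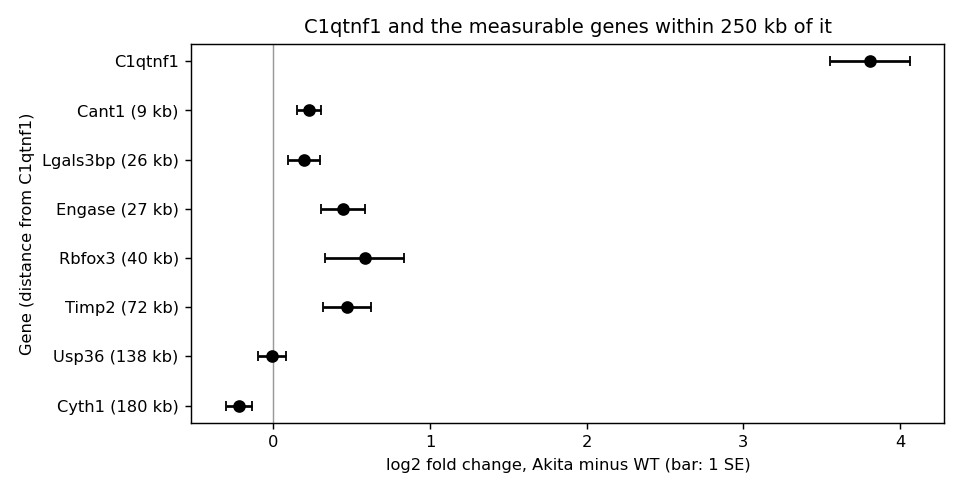
The log2 fold change (Akita minus WT, horizontal axis, bars of 1 SE) of *C1qtnf1* and of the 7 tested genes within 250 kb of it, ordered by distance. *C1qtnf1* stands at 3.81 and its neighbours between −0.22 and 0.58.

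Around the other measured members, 0 of 12 tested genes near *C1qtnf4* and 0 of 13 near *C1qtnf6* passed the threshold, each with 1 at an unadjusted p under 0.05. Over all tested genes, 18.7% had an unadjusted p under 0.05. Of 31 tested genes near *C1qtnf12*, 4 had an unadjusted p under 0.05 and *AW011738* alone passed the adjusted threshold, at 17.1 ± 0.462 CPM in Akita and 6.25 ± 1.58 CPM in WT (SD, n = 3 each), a log2 difference of 1.48 (SE 0.18, limma-voom adjusted p = 0.0197). It lies 236675 bases from *C1qtnf12*.

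The wider C1q family and its partners were examined as 4 lists with 48 tested genes, of which 1 was higher and 0 lower in Akita islets at the adjusted threshold, while an unadjusted p below 0.05 was found for 3 higher and 5 lower ones. Over all tested genes, 9.81% were higher and 8.88% lower at that unadjusted p. The median of their log2 fold changes was −0.010, against −0.0011 over all genes. Of 13 tested C1q-domain relatives, *Emilin1*, which encodes a glycoprotein of elastic fibers, was higher in Akita. It measured 347, 304 and 354 CPM in AK4, AK5 and AK6, against 242, 212 and 242 CPM in WT1, WT2 and WT3. The groups did not overlap, and the log2 fold change came to 0.53 (SE 0.09, limma-voom adjusted p = 0.0447). Leaving out any 1 library raised its adjusted p to between 0.0554 and 0.184, and with the mesenchymal score in the model it was 0.0598. The complement genes *C1qa*, *C1qb* and *C1qc*, which macrophages express, had log2 fold changes of −0.35 (SE 0.26), −0.62 (SE 0.39) and −0.53 (SE 0.47), and none passed. *Mmrn2*, an endothelial matrix protein, had one of −0.12 (SE 0.22), and *Cbln4*, a secreted synaptic protein, one of 0.29 (SE 0.40). *Fam132b*, which encodes erythroferrone, the hormone of red cell precursors that lowers hepcidin, had 11, 7 and 8 counts in the Akita libraries and 19, 17 and 12 in the WT libraries. These counts did not overlap, but the gene did not pass the test, its log2 fold change being −1.02 (SE 0.32, limma-voom adjusted p = 0.156). *C1qtnf9*, a family member outside the 8, had 2, 7 and 3 counts in the Akita libraries and 7, 5 and 0 in the WT libraries and was not tested.

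Of 10 tested receptors and adaptors of adiponectin and its relatives, 0 passed the threshold in either direction and 0 had an unadjusted p under 0.05. The adiponectin receptors were well expressed. *Adipor1* measured 140, 146 and 145 CPM in AK4, AK5 and AK6, against 141, 137 and 136 CPM in WT1, WT2 and WT3, with a log2 fold change of 0.05 (SE 0.06). *Adipor2* measured 111, 115 and 106 CPM in the Akita libraries, against 112, 116 and 113 CPM in the WT libraries, with a log2 fold change of −0.04 (SE 0.06). *Ncl*, which encodes nucleolin and had the highest level of the list, had a log2 fold change of −0.08 (SE 0.08), and *Appl2*, an adaptor that binds the adiponectin receptors, one of 0.02 (SE 0.09). Of 6 tested subunits of AMP-activated protein kinase, a kinase downstream of adiponectin receptors, 0 passed. *Prkaa1*, the catalytic subunit with the highest level, had a log2 fold change of −0.06 (SE 0.07) and *Prkag1* one of −0.0023 (SE 0.09). *Prkab1* at −0.35 (SE 0.12, limma-voom adjusted p = 0.174) and *Prkag2* at −0.26 (SE 0.10, adjusted p = 0.236) had an unadjusted p under 0.05. Over all tested genes, 8.88% were lower at that unadjusted p. Of the 6 subunits, 5 had a log2 fold change below 0 and 1 above. The sums of the list did not overlap, at 209 to 223 CPM in Akita and 229 to 252 CPM in WT.

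The enzymes and chaperones that modify and fold collagen-like chains in the endoplasmic reticulum were the last list. Of its 19 tested genes, 0 passed the threshold, and 2 higher and 2 lower had an unadjusted p under 0.05, beside the 9.81% and 8.88% of all tested genes. *P4hb*, the protein disulfide isomerase that is also a subunit of prolyl hydroxylase, measured 1937, 1718 and 2150 CPM in AK4, AK5 and AK6, against 1813, 1941 and 2062 CPM in WT1, WT2 and WT3, with a log2 fold change of −0.01 (SE 0.10). *Erp44*, which retains assembling adiponectin in the secretory pathway, had one of −0.07 (SE 0.07). *Ppib*, a proline isomerase of the endoplasmic reticulum, had one of 0.0030 (SE 0.10). *Furin*, a protease of the secretory pathway that cleaves adipolin, had one of 0.19 (SE 0.11).

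The genes whose pattern was most like that of *C1qtnf1* were found by Pearson's r of log2 CPM over the 6 libraries, among 10441 tested genes with a mean of at least 5 CPM. They were *Ppp3ca* (r = 0.998), which encodes a catalytic subunit of calcineurin, *Cblb* (r = 0.996), a ubiquitin ligase, *Kdelr3* (r = 0.995), a receptor that returns proteins to the endoplasmic reticulum, *Wdyhv1* (r = 0.993), a glutamine amidase, and *Tspan33* (r = 0.993), a tetraspanin. These r values are descriptions over 6 libraries that fall into 2 separate clusters by genotype and share depth and scaling, and 163 of the 10441 genes had an r over 0.95. The levels of these genes differed far less between genotypes than that of *C1qtnf1*. *Kdelr3* measured 74.8, 81.5 and 93.9 CPM in AK4, AK5 and AK6, against 33.3, 27.5 and 35.4 CPM in WT1, WT2 and WT3, a log2 fold change of 1.38 (SE 0.13), and *Ppp3ca* had one of 0.52 (SE 0.07). Among the genes most like *C1qtnf6* were *Chga* and *Itfg2* (r = 0.994 and 0.993), those most like *C1qtnf4* were *Galnt1*, *Jund* and *Emc8* (r = 0.991, 0.989 and 0.989), and those most like *C1qtnf12* were *Ckap2l*, *Prc1* and *Aven* (r = 0.998, 0.989 and 0.988).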

How the data were processed

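The members and gene lists were chosen with earlier results of these data known. Reads were single, 50 bases long, and the libraries, made from 120 ng of RNA, held polyadenylated transcripts. The authors trimmed them with cutadapt (version 1.12) and used STAR (2.5.2b) for alignment to GRCm38, and HTSeq (0.7.2) for read counts per gene. No source used here gives the strand setting, the overlap mode or the annotation release. The deposited table holds raw read counts per gene in 6 columns for 47729 rows, of which 6815 hold marks in place of values and were left out. Because of these marks the columns were handled as values of another kind than plain counts, and a linear model on log values was used. A further 6 columns of normalized counts, and the columns of the authors' own comparison from DESeq2 (1.12.4), which hold fold changes and p-values, were not used.

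Counts were scaled by TMM (30% and 5% trimming, written for this purpose) and fitted with limma-voom (limma 3.58.1, R 4.3.3), Akita minus WT, over the genes that reached, in at least 3 libraries, the CPM of 10 counts in a library of median total, and 15 counts in all. P-values are two-sided and Benjamini-Hochberg adjusted over 15407 genes, with a threshold of 0.05. The code of the fit was also run on simulated counts, with the same relative spread beyond counting noise for every gene. That run does not show how the fit behaves at the spread of these pools. Libraries of 1 group differed by far more than counting noise, so none was another library counted again. Separate libraries made from the same pool could not be recognized in this way. P-values measure the spread between pools. Gene models and lengths are from GENCODE M21, and distances run between gene bodies.

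All members are named. Of the lists, genes past the threshold and up to 4 others of each with the highest level are named, together with a few defining markers. *Fam132b*, *C1qtnf9*, *C1qc*, *Mfrp*, *Gm11747* and the neighbouring genes were named for their relation to members or after their values were seen. Alternatives covered scaling, filters, quality weights, a log-scale fit, marker scores as covariates and leaving out each library. A gene that the rule of likeness to *C1qtnf6* selects is not reported here.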

Additional observations from a re-analysis of the deposited data

How the results depend on the processing

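The log2 fold change of *C1qtnf1* kept its direction in all 16 alternatives. This is a description, since the family was chosen for this rise. With the lowest Akita library 9.56-fold above the highest WT library, leaving out a library could not have reversed it. Leaving out 1 library gave 3.49 to 4.002 for *C1qtnf1*, 0.056 to 0.36 for *C1qtnf4*, −0.013 to 0.11 for *C1qtnf6* and −0.43 to −0.0012 for *C1qtnf12*. The other settings gave 3.59 to 3.93, 0.14 to 0.28, 0.019 to 0.15 and −0.25 to −0.12 for these genes in the same order. The *C1qtnf6* value of 0.15 came from library totals alone. The number of genes higher in Akita, 117, was 450 under library totals alone and 272 with sample quality weights, and the number lower, 132, was 249 with quality weights. Leaving out 1 library gave 0 to 344 higher and 0 to 240 lower genes, namely 21 and 43 without WT1, 2 and 5 without WT2, 1 and 0 without WT3, 344 and 240 without AK4, 25 and 24 without AK5, and 0 and 0 without AK6. The count of relatives and partners higher in Akita, 1, was 0 when library sizes were computed without hormone and acinar genes, 2 with the acinar score as a covariate and 0 to 1 when 1 library was left out. The adjusted p of *Emilin1* was 0.0505 with those library sizes, 0.0598 with the mesenchymal score and 0.0554 to 0.184 when 1 library was left out. The causes of these changes were not tested. Negative binomial count models were not run. The marks did not rule them out, since the rows kept held whole-number counts. No paired analysis was possible because the column names of the Akita libraries do not carry the replicate numbers of the labels. No source used here states that Akita and WT pools were paired, so equal replicate numbers need not mark pairs. Members with under 10 counts a library are limited by depth.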
